A study of Rattus norvegicus with 4 samples.

Results

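Microglia of the rat ventral tegmental area were taken here as the nuclei with at least 3 transcripts in all of C1qa, C1qb, Csf1r, Inpp5d, Cx3cr1 and P2ry12 and with none of Gja1, Pdgfra, Rbfox3, Flt1 or Mog, genes that mark astrocytes, oligodendrocyte precursors, neurons, endothelial cells and oligodendrocytes. This gate held 1019 of 21606 nuclei (4.72%): 263 in female library 1, 262 in female library 2, 175 in male library 1 and 319 in male library 2. The series is single-nucleus RNA sequencing of the ventral tegmental area, a midbrain region known for its dopamine neurons. Adult Sprague-Dawley rats of 90 to 120 days that had undergone no experiment gave 2 female and 2 male libraries, and each library pools tissue from 3 rats, so the spread between libraries is that between pools. All 4 libraries share strain, age range and absence of treatment, and sex is the factor that differs. Frozen tissue was dissociated to nuclei, which were stained with a DNA dye and sorted before capture, so the transcripts are mainly those of the nucleus. Levels are given as counts of unique molecular identifiers (UMIs, each standing for 1 captured transcript) summed over the members of a library and scaled to a total of 1000000 (CPM), in the order female 1, female 2, male 1, male 2. They were not scaled for gene length, and no level is compared between genes.

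Microglia are the resident macrophages of the brain. They live on signals through the receptor Csf1r, keep a resting identity under TGF-beta signalling and the transcription factors PU.1 (gene Spi1) and Sall1, and survey the tissue with purinergic and pattern-recognition receptors. They clear debris and synapses through complement and phagocytic receptors, and in the midbrain they lie among dopamine neurons whose loss in Parkinson's disease is accompanied by microglial activation.

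PU.1 is an ETS family factor that binds purine-rich DNA with a GAGGAA core, so the promoters of genes higher in the gated nuclei were searched for that core. RefSeq promoters of the GRCr8 build, running from 250 bases before to 50 bases after the annotated start, were matched by symbol to 470 of the 635 genes that were higher in microglia than in each of 5 other cell classes (defined below). GAGGAA, on either strand, was found in 38.7% of those 470 promoters, in 26.1% of the 8490 matched promoters of all genes tested against the classes, and in 27.5% of all 27457 promoters. The longer word GAGGAAGT, which contains the first, was found in 6.60% (31 promoters), 2.44% and 2.44% of the same sets. Of the 20 genes with the largest rises, 11 had a promoter in the table, 7 of these held GAGGAA, and those of Cd37 and Pik3cg held GAGGAAGT. The promoters of Cd37 (chr1:104860735-104861034, minus strand), Pik3cg (chr6:54529460-54529759, minus strand) and Tlr7 (chrX:30644176-30644475, plus strand) are shown 5′ to 3′ on the gene's strand, as examples that hold the core. These genes are among the 20 and encode a tetraspanin of leukocytes, a phosphoinositide kinase of leukocytes and an RNA-sensing receptor. The promoters of Cd180, P2ry13, Ltc4s and LOC102549869, also among the 20, did not hold it. Capitals mark GAGGAA or its reverse complement.
Cd37: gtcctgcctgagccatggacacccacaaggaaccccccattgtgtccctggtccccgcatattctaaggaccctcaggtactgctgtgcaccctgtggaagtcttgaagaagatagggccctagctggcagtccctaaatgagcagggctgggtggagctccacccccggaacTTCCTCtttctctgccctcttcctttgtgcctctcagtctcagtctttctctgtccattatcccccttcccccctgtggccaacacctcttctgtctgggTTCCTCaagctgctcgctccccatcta
Pik3cg: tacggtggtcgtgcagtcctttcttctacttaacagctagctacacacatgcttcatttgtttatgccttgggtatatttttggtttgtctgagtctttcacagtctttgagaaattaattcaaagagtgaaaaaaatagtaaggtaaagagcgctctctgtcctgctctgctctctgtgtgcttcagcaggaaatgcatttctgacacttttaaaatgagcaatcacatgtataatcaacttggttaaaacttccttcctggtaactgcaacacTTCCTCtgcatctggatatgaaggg
Tlr7: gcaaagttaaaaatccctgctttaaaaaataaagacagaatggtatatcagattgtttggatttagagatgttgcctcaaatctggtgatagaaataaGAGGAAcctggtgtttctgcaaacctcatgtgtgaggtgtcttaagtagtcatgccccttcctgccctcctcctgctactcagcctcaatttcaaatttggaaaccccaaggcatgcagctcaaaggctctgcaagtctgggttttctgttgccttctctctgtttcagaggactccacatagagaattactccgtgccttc
These matches describe the letters in the windows and were not tested for binding.

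The gate was met with room to spare in most members. The 6 gating genes summed to a median of 17 UMIs per member and a maximum of 74, and 869 members (85.3%) had 10 or more. All 6 genes were detected in 225 members, 5 in 402, 4 in 283, 3 in 84, 2 in 22 and 1 in 3. C1qa, a chain of the complement component C1q, stood at 3258, 2005, 2697 and 3406 CPM in the members and at 5.83 to 9.40 in other barcodes. Csf1r, the receptor for the survival factors CSF1 and IL-34, stood at 3516, 2428, 2868 and 2679.7. P2ry12, the purinergic receptor that steers microglial processes toward injury, stood at 512, 335, 492 and 394. These values chose the members and are given as a description. Just inside the threshold, 8 nuclei had a sum of 3 and 19 had a sum of 4; just outside it, 18 nuclei with no excluding transcript had a sum of 2 and 175 had a sum of 1. The excluding genes kept out a further 120 nuclei with sums of 3 or more (median 17.5), of which 60 held Mog, 38 Gja1, 19 Pdgfra, 8 Rbfox3 and 7 Flt1.

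A list of 20 homeostatic microglial genes that the gate did not use (among them Tmem119, Sall1, Gpr34 and Slc2a5) was present in every member. Summed over the list, nuclei with gate sums of 10 or more stood at 12644 CPM, those with 5 to 9 at 11316 and those with 3 or 4 at 2932. Of the 27 nuclei with sums of 3 or 4, 2 had 5000 UMIs or more and held 69.3% of the group's UMIs. The other 25 stood at 8331 CPM. With nuclei of that depth left out in the same way, those with sums of 10 or more stood at 13828. The group with sums of 5 to 9 held 0 such nuclei and stayed at 11316. Nuclei just below the gate stood at 558 CPM for a sum of 2 and 109 for a sum of 1, and were deeper, with medians of 3373 and 6837 UMIs against 796 in the 27. The 120 nuclei kept out by an excluding gene stood at 4139. In the plot of gating against homeostatic transcripts, the points of the 4 libraries overlapped throughout.

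**Figure D1:**
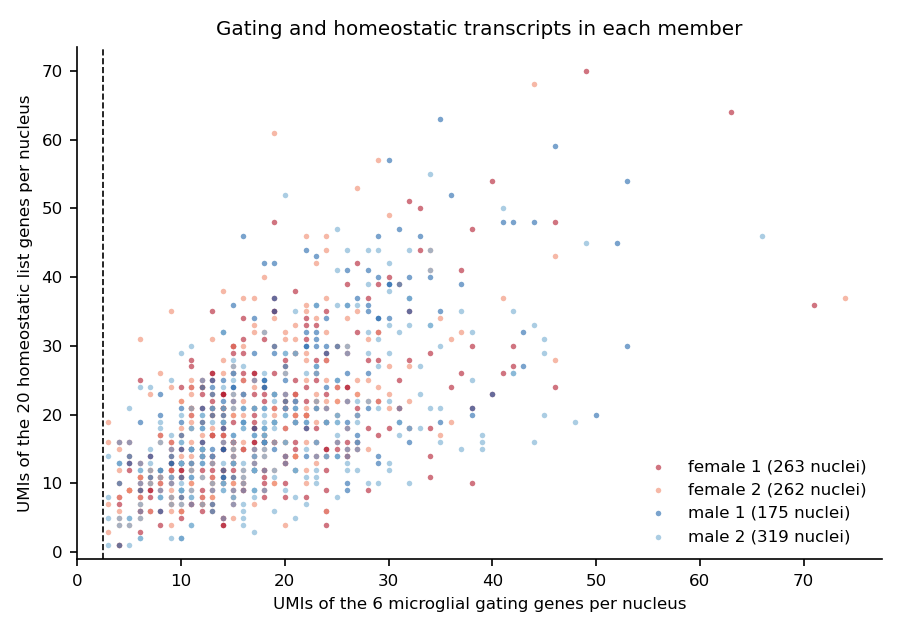
UMIs of the 20 homeostatic genes (vertical axis) against UMIs of the 6 gating genes (horizontal axis) in each of the 1019 members, coloured by library; the dashed line is the gate at 3. All members lie above 0 on the vertical axis, and the median gate sum is 17.

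Each library held 19714338 to 25824289 UMIs, and the members held 343769 to 494452 of them per library (1680646 in all). Members were shallower than other barcodes, with a median of 1330 UMIs against 3093. The gate asks for 5 genes at 0, and whether that requirement favours shallow nuclei was not tested. By their Scrublet scores 23 members (2.26%) were called doublets, the number of calls per library being set by an assumed rate. In 17 members there were 5000 UMIs or more; these deep members held 12.2% of all member UMIs, 12 of them were doublet calls, and results that rest on them are given with and without them. Between libraries 36 barcode sequences recurred, 2 of them in members.

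To ask which genes set these nuclei apart, UMIs were summed per library over members and over all other barcodes and compared with edgeR's quasi-likelihood test, with the library as a block. A gene was called at an adjusted p under 0.05 and a log2 fold change beyond 1 in size. Of 15299 genes tested, 2024 were higher in microglia (13.2%) and 3605 were lower (23.6%), with a median log2 fold change over all tested genes of -0.32. Lists of genes by role are read against these shares. A listed gene near 0 in other barcodes could be tested only through its UMIs in members, so it could not be called lower. A second test set the members against 5 classes gated in the same way from the excluding genes: 9172 Mog nuclei (oligodendrocytes), 1920 Gja1 nuclei (astrocytes), 1244 Pdgfra nuclei (oligodendrocyte precursors), 80 Rbfox3 nuclei (neurons) and 45 Flt1 nuclei (endothelial cells). In it 635 of 11309 genes (5.61%) were higher in microglia than in each class by more than 1 on the log2 scale, and 69 (0.61%) were lower than in each. The Flt1 class held 6 to 23 nuclei per library; without it 1018 of 11696 genes (8.7%) were higher than in each of the remaining 4. Detection, the expected share of nuclei with at least 1 UMI of a gene, was computed after thinning each nucleus to 1000 UMIs, which left out the 288 members below that depth and kept 731. It is given as the mean ± SD over the 4 libraries beside that in the Mog class, where free RNA sets a floor for genes that oligodendrocytes lack. With 4 libraries the smallest p of an exact two-sided sign-flip test is 0.125 (0.183 after adjustment over 266 genes), so detection is a description. Of the 266, 154 were detected in a larger share of members than of Mog nuclei in all 4 libraries.

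**Figure D2:**
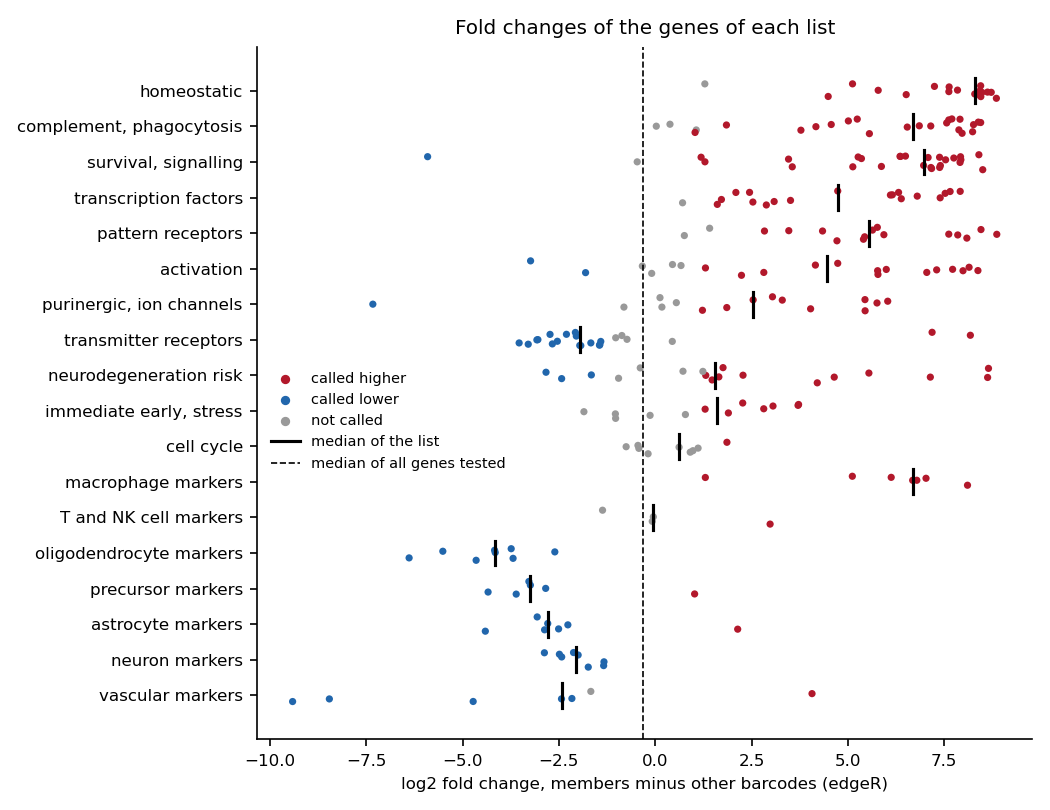
Log2 fold change of members over other barcodes (horizontal axis) for each tested gene of 18 lists (rows); red and blue points passed the test in either direction, grey points did not, bars are list medians and the dashed line is the median of all tested genes, -0.32. The homeostatic list has the highest median (8.31) and the oligodendrocyte markers the lowest (-4.16). The leftmost pair of vascular genes, Cldn5 and Rgs5, have 0 UMIs in members, so their fitted values are no measure of size.

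The homeostatic list was higher in microglia almost throughout. Of 20 genes tested, 19 were called higher and none lower, with a median log2 fold change of 8.31, and all 19 that could be tested against the 5 classes were higher than in each. Tmem119, a surface protein used to tell microglia from blood-derived macrophages, stood at 644, 468, 704 and 589 CPM, against 1.47 to 2.15 in other barcodes. The groups did not overlap, and the log2 fold change was 8.43 ± 0.19 (SE, edgeR adjusted p = 3.87e-22). Each SE of a log2 fold change was derived from the test, as its size divided by the square root of edgeR's F statistic. It is an approximation and not a fitted error. It was detected in 45.7% ± 5.87 of thinned members and 0.0411% ± 0.0254 of Mog nuclei (unthinned, 57.0% and 0.0951%). Sall1, the transcription factor that holds microglial identity, stood at 549, 732, 582 and 647, against 25.2 to 39.0, a log2 fold change of 4.49 ± 0.14 (edgeR adjusted p = 2.12e-19); the groups did not overlap, and female library 2 was highest in both. Slc2a5, a fructose transporter, was higher by 7.85 ± 0.18 on the log2 scale and detected in 45.2% ± 5.63 of thinned members. Ctss, the lysosomal protease cathepsin S, was detected in 85.1% ± 2.64 of thinned members and 0.118% ± 0.0958 of Mog nuclei. The exception was Olfml3, a secreted protein, with 5.28, 0, 14.5 and 0 CPM from 7 UMIs in all, which did not pass (edgeR adjusted p = 0.207).

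**Figure D3:**
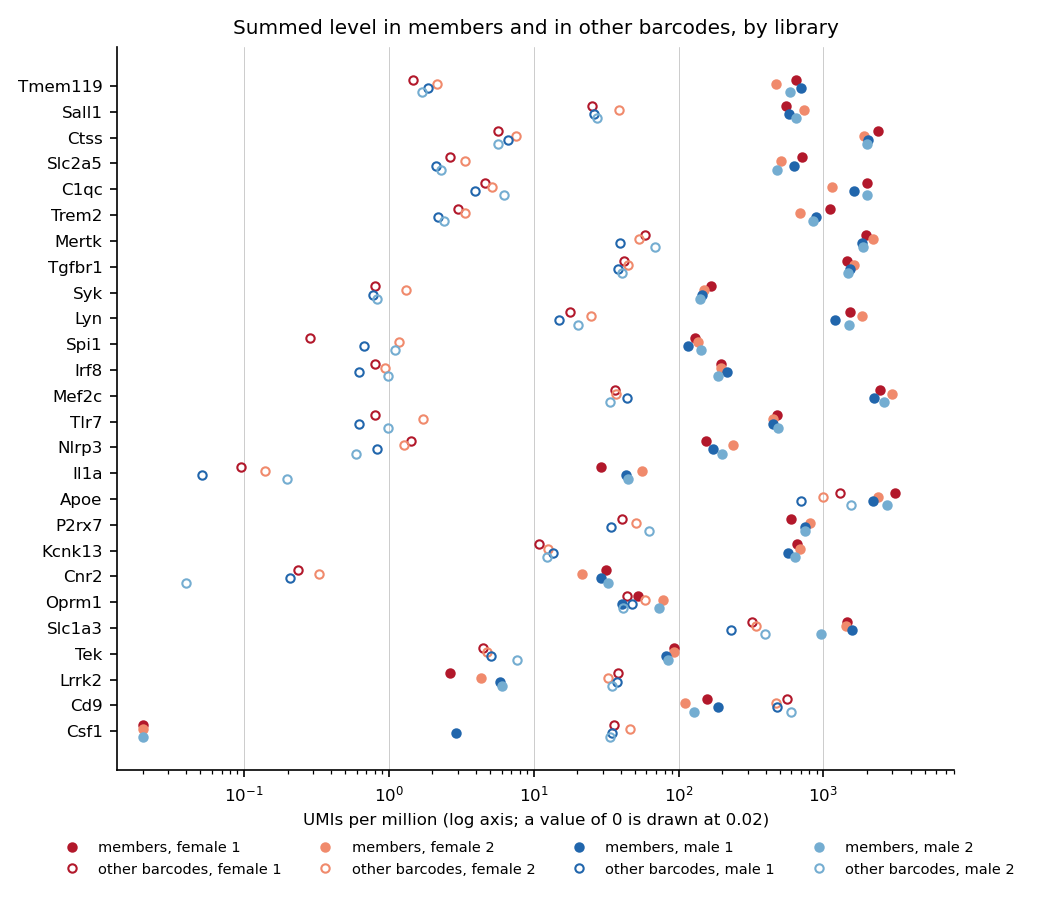
UMIs per 1000000 (CPM, log axis; 0 drawn at 0.02) of 26 genes in the members (filled) and in other barcodes (open) of each of the 4 libraries. Tmem119 to Il1a lie far to the right in members of all 4 libraries, Oprm1 overlaps, and Lrrk2, Cd9 and Csf1 lie to the left.

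Complement and phagocytosis genes were largely higher. Of 24 tested, 21 were called higher and none lower, with a median log2 fold change of 6.70; 20 of 23 were higher than in each class. C1qc, the C1q chain that the gate did not use, stood at 1989, 1155, 1632 and 1988, against 3.92 to 6.20 in other barcodes (log2 fold change 8.45 ± 0.20). The groups did not overlap, and its lowest library, female 2, was also the lowest for C1qa and C1qb. Among the other complement genes, C3 (the central component) stood at 198, 90.6, 209 and 174, and the receptors C3ar1, C5ar1 and C5ar2 were higher by 4.17 ± 0.21, 7.70 ± 0.34 and 7.91 ± 0.31. Trem2, a lipid-sensing receptor, stood at 1103, 684, 896 and 853, against 2.17 to 3.37 (log2 fold change 8.39 ± 0.20), and its signalling partner Tyrobp at 519.7, 285, 457 and 550.1, against 1.29 to 1.78. In both, female library 2 was lowest among the members. The receptor kinases that take up dying cells differed from each other. Mertk stood at 1971, 2184, 1838 and 1877, against 39.4 to 68.7, and was higher than in each class, including the Gja1 class at 406. Axl stood at 13.2, 6.47, 17.5 and 18.2, against 10.0 to 17.6, overlapped with other barcodes (log2 fold change 0.03 ± 0.35, edgeR adjusted p = 0.954) and was lower than in the Gja1 class (117). Of their bridging ligands, Pros1 (protein S) was higher by 4.57 ± 0.14 and Gas6 by 1.03 ± 0.15. Vsig4 and Msr1 did not pass either, with 2 and 37 UMIs.

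Genes of survival and immune signalling followed. Of 27 tested, 25 were called higher and 1 lower, with a median of 6.97; 19 of 25 were higher than in each class. The gene called lower was Csf1, a ligand of Csf1r. It had 1 UMI over all members, against 35.7, 46.6, 34.8 and 33.9 CPM in other barcodes, 84.7 in the Mog class and 58.0 in the Gja1 class. The other ligand, Il34, stood at 0, 6.47, 8.73 and 6.07, against 5.75 to 9.55, and did not pass (edgeR adjusted p = 0.48). On the TGF-beta side, the ligand Tgfb1 stood at 227, 188, 154 and 186, against 1.24 to 1.66, and the receptor Tgfbr1 at 1451, 1619, 1533 and 1491, against 38.0 to 44.4. The log2 fold changes were 7.16 ± 0.18 and 5.27 ± 0.15. Tgfbr2 was higher by 3.46 ± 0.15 and higher than in 4 classes but not the Flt1 class, where it stood at 212 beside 262 in pooled members. Nrros, which presents latent TGF-beta on microglia, was higher by 7.08 ± 0.16. The kinases that act below Fc and Trem2 receptors were also higher: Syk stood at 166, 149, 145 and 139.5 and Lyn at 1535, 1860.4, 1204 and 1509, with log2 fold changes of 7.38 ± 0.22 and 6.37 ± 0.15. Blnk, an adaptor known from B cells, was detected in 58.6% ± 1.99 of thinned members and 0.275% ± 0.238 of Mog nuclei. Csf2rb, a subunit of the GM-CSF receptor, was called higher (log2 fold change 7.75 ± 1.03) from 13 UMIs, all in the female libraries (10.6, 19.4, 0 and 0 CPM).

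Of 19 transcription factors tested, 18 were called higher and none lower, with a median of 4.74; 13 of 18 were higher than in each class. Spi1 (PU.1) stood at 129, 136, 116 and 144, against 0.284 to 1.17 in other barcodes, a log2 fold change of 7.40 ± 0.26 (edgeR adjusted p = 3.54e-18). Irf8, its partner in myeloid cells, stood at 195, 196, 215 and 188, against 0.619 to 0.987, and was higher by 7.92 ± 0.19. Neither overlapped with other barcodes, and the SD over the 4 member libraries was 11.6 CPM for each. Mef2c, a factor shared with neurons and endothelium, was detected in 90.0% ± 0.416 of thinned members; it stood at 2609.7 in pooled members, 467 in the Flt1 class and 56.7 in the Rbfox3 class. Runx1, Ikzf1 and Fli1, factors of the blood lineage, were higher by 6.80 ± 0.15, 7.66 ± 0.21 and 7.53 ± 0.16. Nfkb1, a subunit of NF-kappa-B, was higher by 2.09 ± 0.13, and Stat3, which acts below cytokine receptors, by 0.71 ± 0.15, under the fold threshold.

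Of 22 pattern-recognition genes listed, 19 were found by name and 16 were tested. Among the 16, 14 were called higher and none lower, with a median of 5.54, and 8 of 10 were higher than in each class. Tlr7, an endosomal receptor for single-stranded RNA, stood at 475, 449, 448 and 485, against 0.619 to 1.73 (log2 fold change 8.87 ± 0.20, edgeR adjusted p = 4.90e-22). It was detected in 37.4% ± 1.73 of thinned members and 0.00544% ± 0.00803 of Mog nuclei. Tlr3, the receptor for double-stranded RNA, stood at 272, 149, 247 and 261, with female library 2 the lowest, and at 29.6 in the Gja1 class. Tlr2 and Tlr4, which sense bacterial lipopeptides and lipopolysaccharide, stood at 189.9, 192, 175 and 210.3 and at 63.3, 95.0, 52.4 and 87.0. The DNA sensor Tlr9 had 3 UMIs, and Tlr5 and Tlr12 had none. Nlrp3, the sensor of an inflammasome, stood at 156, 237, 172 and 200.2, against 0.592 to 1.42, and was higher by 7.62 ± 0.21, while Aim2, a sensor of another inflammasome, had 2 UMIs and did not pass. Clec7a, which marks activated microglia, was called higher from 10 UMIs. Members of all 4 libraries stood above every library of other barcodes for Tlr2, Tlr3, Tlr4, Tlr7 and Nlrp3.

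Genes of activation and of the disease-associated state were mixed. Of 28 listed, 20 were tested. Among the 20, 14 were called higher, 2 lower and 4 did not pass, with a median of 4.45, and 6 of 16 were higher than in each class. Apoe, a lipid carrier, stood at 3099.7, 2398, 2185 and 2734, against 1308, 990.0, 703 and 1559.9 in other barcodes, and was higher by 1.30 ± 0.14. Members were higher than other barcodes in each library, but lower than the Gja1 class, which stood at 9474 beside 2612 in pooled members. The lysosomal proteases Ctsb, Ctsd and Ctsz were higher by 2.82 ± 0.13, 2.24 ± 0.13 and 7.05 ± 0.17. Several markers of the disease-associated state were near the floor. Cst7 had 1 UMI, Lpl had 1 and was called lower, Lgals3 had 3 and Gpnmb 14, neither of which passed. Spp1 (osteopontin) stood at 18.5, 25.9, 5.82 and 20.2, against 13.9 to 27.5, and did not pass (edgeR adjusted p = 0.836). Cd9, a tetraspanin of that state and of oligodendrocytes, was lower, at 158, 110.1, 186 and 127, against 558, 472, 475 and 593 (log2 fold change -1.81 ± 0.15), with no overlap; the Mog and Pdgfra classes stood at 1104 and 2081. Among cytokines, Il1a stood at 29.0, 56.1, 43.6 and 44.5, against 0.0516 to 0.197 (log2 fold change 8.38 ± 0.44), and Il6 was called higher from 26 UMIs. Members of all 4 libraries stood above other barcodes for Il1a. Il1b had 3 UMIs, Ccl2 1, Cxcl10 1 and Nos2 1. Of the antigen-presenting genes, B2m stood at 1833, 1062, 1431 and 1715 and Cd74 at 153, 32.4, 157 and 149.7; for Cd74 female library 2 was the lowest. Without the 22 nuclei with macrophage transcripts described below, the libraries stood at 144, 28.5, 161 and 105 CPM for Cd74, and 51 of the other 997 members held it. Itgax and Tnf had 0 UMIs in every barcode of the series, as had Hsp90aa1, a chaperone of all cells; 9 listed genes were at 0 throughout, and no absence is read from them.

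Of 15 purinergic and ion-channel genes tested, 10 were called higher and 1 lower, with a median of 2.54; 4 of 11 were higher than in each class. P2rx7, an ATP-gated channel upstream of interleukin-1 release, stood at 596, 809, 748 and 746, against 34.1 to 62.5 (log2 fold change 4.03 ± 0.15), and at 109.7 in the Mog class. Kcnk13, the potassium channel THIK-1 that sets the resting potential of microglia, stood at 654, 693, 570.1 and 639, against 10.8 to 13.6 (log2 fold change 5.76 ± 0.15). It was detected in 46.3% ± 2.66 of thinned members and 0.615% ± 0.0505 of Mog nuclei (unthinned, 52.9% and 1.58%). The proton channel Hvcn1 and the oxidant-gated channel Trpm2 were higher by 5.45 ± 0.35 and 3.30 ± 0.20 and higher than in each class. Piezo1, a mechanically gated channel, stood at 73.9, 104, 90.2 and 119 and was higher than in 4 classes, the Flt1 class standing at 138. The gene called lower was Clic4, an intracellular chloride channel protein, with 1 UMI in all members against 97.7, 129, 73.7 and 98.7 CPM in other barcodes, while its relative Clic1 was higher by 6.04 ± 0.36. The adenosine receptor Adora1 did not pass (edgeR adjusted p = 0.59).

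Transmitter receptors were mostly lower. Of 22 tested, 2 were called higher and 16 lower, with a median of -1.94; 1 of 18 was higher than in each class. Cnr2, the cannabinoid receptor of immune cells, was among the genes called higher. It stood at 31.7, 21.6, 29.1 and 32.4, against 0.0395 to 0.327 (log2 fold change 7.19 ± 0.51), from 48 UMIs, and was higher than in 4 classes but not the Flt1 class (edgeR adjusted p = 0.0648). Oprm1, the mu opioid receptor, stood at 52.8, 77.7, 40.7 and 72.8, against 44.0, 58.2, 47.7 and 41.5. It was higher in members of 3 of 4 libraries, male library 1 being the exception, and its log2 fold change of 0.44 ± 0.18 (edgeR adjusted p = 0.0456) was under the fold threshold. Against single classes it was higher than in 4. It stood at 63.1 in pooled members beside 5.75 in the Mog, 4.76 in the Gja1, 7.63 in the Pdgfra and 10.6 in the Flt1 class. The Flt1 value is that of 1 UMI, and the Rbfox3 class stood at 91.6. Of the 106 member UMIs of Oprm1, 99 were in members under 5000 UMIs. It was detected in 5.74% ± 1.84 of thinned members and 0.266% ± 0.0679 of Mog nuclei. Dopamine receptors were near the floor: Drd2 had 5 UMIs, all in female library 1, Drd1 and Drd3 had 1 each and Drd4 had none. Gabbr1, a GABA-B receptor subunit, was lower, at 174, 104, 119 and 136, against 391, 304, 416 and 401 (log2 fold change -1.45 ± 0.15), and its partner Gabbr2 was lower by 2.07 on the log2 scale. Gria2, a glutamate receptor subunit, was lower by 2.30 in all members and by 4.44 in members under 5000 UMIs. Htr2b, a serotonin receptor, was lower by 0.86, under the fold threshold (edgeR adjusted p = 0.00615).

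Of 18 genes of inherited risk for Alzheimer's or Parkinson's disease that were tested, 11 were called higher and 3 lower, with a median of 1.57; 6 of 17 were higher than in each class. Abi3, an actin regulator, stood at 369, 339, 355 and 366, against 0.671 to 1.17 (log2 fold change 8.63 ± 0.17), with no overlap. Cd33, an inhibitory lectin, stood at 42.2, 45.3, 34.9 and 52.6, against 0 to 0.187. Grn, progranulin, stood at 979, 589, 814 and 756 and Ctsc, a lysosomal protease, at 187, 218, 192 and 174, with log2 fold changes of 4.65 ± 0.15 and 7.14 ± 0.18. Picalm, an endocytic adaptor, was higher by 1.65 ± 0.13, and was higher than in 4 classes but not the Mog class, which stood at 1098 beside 1524 in pooled members. Bin1 was lower by 0.95 on the log2 scale, under the fold threshold, the Mog class standing at 1082 and members at 187, 289, 227 and 235. The Parkinson's disease kinase Lrrk2 was called lower. It had 8 UMIs over all members (2.64, 4.32, 5.82 and 6.07 CPM), against 37.9, 32.8, 37.7 and 34.8 in other barcodes (log2 fold change -2.83 ± 0.37), with no overlap. It stood at 99.9 in the Gja1, 74.7 in the Pdgfra and 4.70 in the Mog class, the last being the class it was not lower than. The small GTPases Rab29 and Rab32, which are known to interact with Lrrk2, were higher by 2.28 ± 0.32 and 4.21 ± 0.36. Clu (clusterin) was lower by 2.43.

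Immediate early and stress genes, which are known to rise when microglia are disturbed by dissociation, were partly higher. Of 12 tested, 7 were called higher and none lower, with a median of 1.60, and 2 of 10 were higher than in each class. Summed over the list the members stood at 227 to 299.6 CPM and other barcodes at 76.6 to 95.1. The Flt1 class stood higher, at 1158 CPM beside 253 in pooled members. Junb stood at 58.0, 56.1, 72.7 and 78.9, against 4.34 to 6.76 (log2 fold change 3.72 ± 0.24), and Klf6 was higher by 1.90 ± 0.21. Fos had 1 UMI and Egr1 2, and neither passed. Of 9 cell cycle genes tested, Mki67 was called higher, from 14 UMIs (7.91, 10.8, 14.5 and 2.02 CPM, log2 fold change 1.86 ± 0.57), and the other 8 did not pass, among them Top2a with 3 UMIs; without male library 1, Mki67 did not pass (edgeR adjusted p = 0.0891).

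The 20 largest rises, among called genes with a mean of 50 CPM or more in members and a higher level in all 4 libraries, had log2 fold changes of 8.46 to 9.17, and each was higher than in each class. They were led by Lilrb3 (ENSRNOG00000046683), an inhibitory receptor of leukocytes, at 68.6, 34.5, 23.3 and 95.1, against 0 to 0.187; male library 1 was lowest and male library 2 highest. Other receptors among the 20 were Tlr7, the sialic acid lectin Siglec5, P2ry13, the lectin Clec4a3, Cd180 and Il1rl1, the receptor for interleukin-33 (129, 147, 102 and 109, against 0.158 to 0.748). Cytoskeletal and signalling genes were Nckap1l, a leukocyte subunit of an actin-regulating complex (615, 569.8, 672 and 550.1, against 1.11 to 2.38), Abi3 and Pik3cg. Among the others were Selplg, a ligand of selectins, Cd37, Ltc4s (leukotriene C4 synthase) and Slc15a3, a peptide and histidine transporter. Provisional names were carried by 5 of the 20: RGD1563400, LOC102549869, AABR07006310.1, AABR07035465.1 and AABR07053771.1. The 10 largest falls included Mcam, a cell adhesion molecule, and AABR07053870.1, each with 0 UMIs in members and therefore at least 33.7-fold and 30.0-fold lower, taking 3 UMIs over all members as the limit. The others were Slc5a11, Clic4, Plekhg3, Sec14l5, AABR07046961.1, Megf10, St18 and Hhip, at fitted log2 fold changes of -7.39 to -6.37. With 1 library left out the fit ranged from -13.1 to -6.65 for Clic4 and from -13.8 to -6.04 for Megf10, which have 1 and 3 member UMIs, so these sizes are loose. In all 10 the Mog class stood highest of the 5, from 154 to 1768 CPM. Megf10, an engulfment receptor of astrocytes, had 3 UMIs in members and stood at 410.2 in the Mog and 242 in the Gja1 class.

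**Figure D4:**
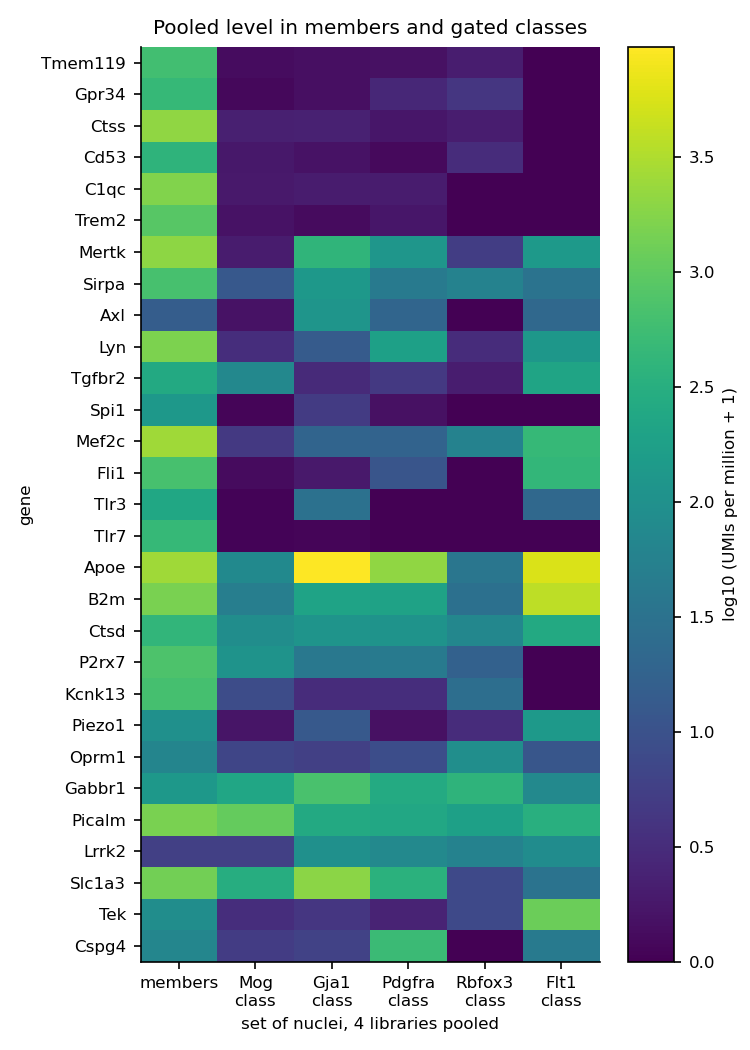
Pooled level of 29 genes (rows) in members and in the 5 gated classes (columns), as log10 of UMIs per 1000000 (CPM) plus 1. Tlr7 and Tmem119 are bright in members alone, whereas Apoe and Slc1a3 are brighter in the Gja1 class, Tek in the Flt1 class and Cspg4 in the Pdgfra class.

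Markers of other cell types were checked in the members. All 8 oligodendrocyte markers were lower, and Mbp, myelin basic protein, stood at 137, 181, 189 and 133, against 2127, 2542, 2139 and 2056 in other barcodes. The groups did not overlap, and the Mog class stood at 6485. Of 7 astrocyte markers, 6 were lower; Aqp4, a water channel, stood at 2.64, 8.63, 14.5 and 18.2, against 827 in the Gja1 class. The seventh, Slc1a3, a glutamate transporter, was higher, at 1461, 1433, 1571 and 963, against 320.2, 343, 231 and 396 (log2 fold change 2.14 ± 0.17). All 4 member libraries lay above every library of other barcodes, with male library 2 the lowest. It was detected in 68.6% ± 7.82 of thinned members, 24.2% ± 0.287 of Mog nuclei and 81.9% ± 2.01 of Gja1 nuclei. Of 6 precursor markers, 5 were lower and Cspg4, a surface proteoglycan, was called higher at the edge of the fold threshold (44.8, 104, 32.0 and 68.8, log2 fold change 1.02 ± 0.22), with 510.5 in the Pdgfra class; without female library 2 it was 0.76 and without male library 2 it was 0.92, both short of the threshold. Of 7 vascular markers, 5 were lower, Cldn5 and Rgs5 being at 0 in members. Tek, the angiopoietin receptor, was higher, at 92.3, 92.8, 81.5 and 84.9, against 4.49 to 7.66 (log2 fold change 4.07 ± 0.22), and lower than in the Flt1 class (1200.3). All 8 neuron markers were lower, their sum standing at 289 to 896 CPM in members and 2642 to 3324 in other barcodes. The 17 deep members held 75.3% of those UMIs (852 of 1132); in members under 5000 UMIs the pooled sum was 189.7. Of the T and NK cell list, Cd3e, Cd3g, Cd2, Prf1 and Nkg7 were at 0, and of 4 tested 1 was called, Skap1, an adaptor of T cells, which was higher, at 95.0, 101, 32.0 and 24.3. Granulocyte and monocyte genes S100a8, S100a9, Mpo, Ly6c and Cd177 were at 0, and Vcan, the member of that list that was tested, was lower by 3.28 on the log2 scale. Vcan is also on the precursor list, and the granulocyte and monocyte list stood at 2684 CPM in the Pdgfra class and 77.9 in the Mog class. Its lower level therefore says nothing of monocytes among the members.

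Markers of macrophages at the brain's borders, which share the gating genes with microglia, lay mostly in few members. All 7 tested were called higher than in other barcodes, and 22 members (2.16%: 6, 6, 4 and 6 by library) held 2 or more UMIs of the list. None of the 22 was a doublet call or a deep member, and their median was 875.5 UMIs. These nuclei were chosen by the markers, so the following values are descriptions, with exact Poisson intervals that cover counting error only. Mrc1, the mannose receptor, stood at 5183 CPM (95% interval 4354 to 6124) in the 22, and the other 997 members held 1 UMI. Cd163, a haemoglobin scavenger receptor, and F13a1, a coagulation factor subunit, likewise had 1 UMI each outside the 22. Lyve1, a hyaluronan receptor, was spread more widely, with 20 UMIs in the 22 and 32 in the others. Among genes that did not choose them, Apoe stood at 13746 CPM (95% interval 12374 to 15229.5) in the 22 and 2432 (2358 to 2509) in the others. Of the 20 homeostatic genes, 15 stood lower in the 22 than in the others, 7 of them with intervals apart, and 5 stood higher, none with intervals apart. Tmem119 stood at 75.1 CPM (95% interval 9.10 to 271) against 599.8 (563 to 638) and Sall1 at 225 CPM (95% interval 82.7 to 490.5) against 641 (603 to 681). Siglec5, Slco2b1, Ptprc, Cd53 and Csf3r were the 5 that did not stand lower, among them Siglec5 at 263 CPM (95% interval 106 to 542) against 262 (238 to 288). Of genes from other lists, Trem2 stood at 300.5 CPM (95% interval 129.7 to 592) against 881 (836 to 927), and its partner Tyrobp at 638 CPM (95% interval 372 to 1022) against 448 (416 to 481). Ly86, a partner of Cd180, stood at 188 CPM (95% interval 61.0 to 438) against 868 (823 to 914). Tlr7 stood higher, at 977 CPM (95% interval 638 to 1431) against 457 (425 to 491), in 4 of 4 libraries. Mertk did not separate, at 1728 CPM (95% interval 1265 to 2305) against 1979 (1912 to 2048). With members of 2 or more macrophage or T and NK cell UMIs left out, 2037 genes were higher and 3894 lower than in other barcodes.

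The share of nuclei that were microglia was compared between the sexes. It was 4.48% in female 1 (Wilson 95% interval 3.98 to 5.04, counting error only), 5.09% (4.52 to 5.72) in female 2, 4.82% (4.17 to 5.57) in male 1 and 4.59% (4.12 to 5.10) in male 2. The female mean was 4.78% ± 0.431 (SD, n = 2) and the male mean 4.71% ± 0.168 (SD, n = 2), and the male libraries lay between the female ones (exact two-sided permutation p = 1; 2 against 2 cannot go below 0.333).

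Expression in microglia was then compared between the sexes, over the 4 member sums. Of 6793 genes tested, edgeR called 37 (0.545%) at an adjusted p under 0.05, 2 higher in females and 35 in males. The 10 with the lowest p fell into 2 kinds. In the first, the UMIs were spread over members of ordinary depth. Kdm5d, a histone demethylase on the Y chromosome, had 0, 0, 36 and 61 UMIs (female 1, female 2, male 1, male 2; edgeR adjusted p = 1.58e-04). Eif2s3y, a translation factor gene of the Y chromosome, had 0, 0, 30 and 48, and the genes named Ddx3 (ENSRNOG00000057231) and AC241873.1 had 1, 0, 46 and 92 and 0, 2, 111 and 148. AABR07039356.2, the gene higher in females, had 42, 120, 0 and 0. In other barcodes these 5 stood at 0 to 7.29 CPM in the sex with the lower level and at 81.8 to 320.2 in the other sex. They were also the 5 genes called (0.0836% of 5982 tested) when members of 5000 UMIs or more were left out, and the 5 called (0.081% of 6174) when doublet calls were left out. Of the 37, 19 were not tested in members under 5000 UMIs, so their loss there is not a failed test. With 2 UMIs or more as the gate, AABR07039356.2 and Eif2s3y did not pass (edgeR adjusted p = 0.118 and 0.0506).

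In the second kind a large share of the UMIs lay in deep members. Gria4, a glutamate receptor subunit, had 37, 48, 247 and 194 UMIs, of which 5, 15, 28 and 21 were in members under 5000 UMIs. Nell1, a secreted protein, had 10, 19, 134 and 82, of which 3, 6, 1 and 4 were in such members. Zmat4, AABR07060487.1 and Adgrl3, an adhesion receptor of synapses, had 71.8%, 87.6% and 49.8% of their member UMIs in the 17 deep members. Adgrl3 had 18, 58, 89 and 110 UMIs in members under 5000 UMIs. Its log2 difference there was -1.60 (edgeR adjusted p = 0.0815), beside -1.83 in all members. Over the 37 calls, 29 had more than 50% of their UMIs there. The deepest member, in male library 1, held 39309 UMIs, 11.4% of that library's member UMIs, with a gate sum of 4, 7800 genes and 168 UMIs of the neuron list; it was not a doublet call. Without that nucleus alone 9 genes were called. The count was 292 without female library 1, 58 without female library 2, 39 without male library 1 (23 of the 37 among them) and 120 without male library 2. Deep members held 10.5% and 6.16% of member UMIs in the female libraries and 19.1% and 14.3% in the male ones.

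Skap1, the other gene higher in females, was not among the 10. It had 36, 47, 11 and 12 UMIs, of which 2.83% lay in deep members, and its log2 difference was 1.83 ± 0.35 (SE, edgeR adjusted p = 0.0307). Both female libraries lay above both male ones. The difference was 1.78 in members under 5000 UMIs (edgeR adjusted p = 0.166) and 1.87 with DESeq2 (adjusted p = 0.335), so its size was kept and its call was not.

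**Figure D5:**
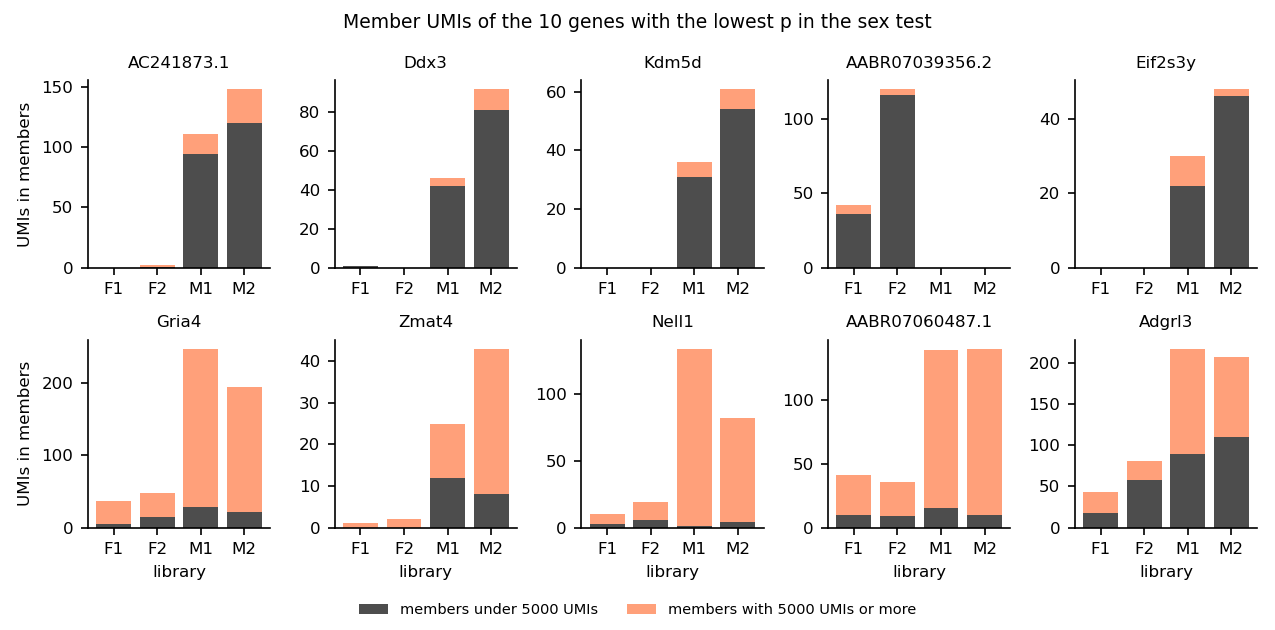
UMIs in members of each library (F1, F2: female 1 and 2; M1, M2: male 1 and 2) for the 10 genes with the lowest p in the sex test, split into members under 5000 UMIs (dark) and the 17 deep members (light). Kdm5d has 36 and 61 UMIs in the male libraries and none in the female ones, largely dark, whereas the bars of Gria4 and Nell1 are mostly light.

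Whether the sex difference in microglia was itself unlike that in other barcodes was tested as an interaction. Of 15299 genes, 148 (0.967%) were called, 10 with a more positive female-minus-male difference in microglia and 138 with a more negative one. In 139 of them more than 50% of the member UMIs lay in deep members. In members under 5000 UMIs 3 of 15226 genes (0.0197%) were called: Ano5, Adgrl3 and Zmat4. With doublet calls left out none of 15190 was called (0% by edgeR; 348 had an unadjusted p under 0.05), and DESeq2 on all members called 21. The count was 248 without female library 1, 60 without female library 2, 50 without male library 1 and 159 without male library 2.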

How the data were processed

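Nuclei of the ventral tegmental area from 4 libraries (2 female, 2 male, 3 rats pooled in each) were analysed from the deposited UMI count matrices, which list barcodes already selected by the authors. The counts were made with Cell Ranger 3.0.2 (per the file headers) against rn6 (per the submitters' processing notes); no source at hand states the annotation or the counting options, so overlapping and antisense genes cannot be told apart. The members were gated as described above; no other filter on nuclei was applied, and the 11 gating genes stayed in library sizes but out of all tests. The gated set, the gene lists and the comparisons were chosen with earlier results of these data known.

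UMIs were summed per library and group and tested with edgeR 4.0.16 (TMM scaling, filterByExpr, quasi-likelihood F test, Benjamini-Hochberg adjustment over all tested genes) in R 4.3.3; DESeq2 1.42.0 was the alternative. Replicates are library pools. Female and male members were compared without a block, so those p-values measure the spread between pools. Where the library was a block, p-values measure how the difference within a library varies over the pools. The interaction fit held the library as a block. Classes were gated by 2 or more UMIs of 1 excluding gene, with the other 4 and all 6 microglial genes at 0. Doublets were scored per library with Scrublet in scanpy 1.11.5 (30 components). The highest scores were called doublets, their number set by an assumed rate of 0.8% per 1000 barcodes. That rule made 980 calls, against 512 by Scrublet's own threshold, and the calls were left out in an alternative. Shares and detection were tested with exact permutation tests (scipy 1.17.1). The tests were also run on simulated counts with the same spread for all genes. Those counts did not model single deep nuclei, so they do not bear on sex calls that rest on such nuclei.

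Genes named are the gating genes, the 20 largest rises and 10 largest falls past the test with 50 or more CPM and 1 direction in all 4 libraries, examples from each list, and up to 10 called genes of lowest p in each sex test. List genes not found by name (Cbr2, Ccr2, Cd36, Dock2, Gpc5, Hspa1b, Lhfpl3, Ly96, Nrg3, Pecam1, Plac8, Sorl1, Tlr10, Tlr13 and Zcwpw1) were not analysed here, and some other genes are not reported here. Promoters come from RefSeq annotation of GRCr8, not the build of the counts, and were matched by symbol. Alternatives changed the tool, scaling, filter, gate, doublets, depth, blocks and libraries.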

Additional observations from a re-analysis of the deposited data

Results flagged for a closer look

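The sex difference in microglia departed from that in other barcodes in 148 genes by edgeR's interaction test, 138 of them with a female-minus-male difference that was more negative in microglia. The log2 difference between the 2 sex differences was -2.52 for Gria4, -2.64 for Nell1, -5.19 for Meis2, -4.57 for Zmat4, -2.56 for Fstl5 and -3.24 for Sorcs1. It was -2.10 for Lrfn5, -3.86 for Ndst4, -2.39 for Lrrtm3, -2.13 for Grm7 and -1.85 for Adgrl3. These 11 include glutamate receptors (Gria4, Grm7) and synaptic adhesion proteins (Lrfn5, Lrrtm3, Adgrl3), and their share of member UMIs in the 17 deep members ran from 49.8% to 96.1%. In members under 5000 UMIs, Adgrl3 and Zmat4 were still called (edgeR adjusted p = 3.42e-04 and 0.00122). Without doublet calls neither was (edgeR adjusted p = 1 for both), the difference being -1.75 for Adgrl3 and -1.67 for Zmat4.

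Ano5, of the anoctamin family of membrane proteins, went the other way, with a log2 difference of 2.67 (edgeR adjusted p = 2.41e-07). Members held 82, 38, 2 and 18 UMIs (female 1, female 2, male 1, male 2), which is 216, 82.0, 5.82 and 36.4 CPM, and other barcodes stood at 12.3 to 16.1. Both female libraries lay above both male ones, and 3.57% of the UMIs were in deep members. It was called in members under 5000 UMIs (edgeR adjusted p = 9.52e-05). Without doublet calls the difference was 2.65 and was not called (edgeR adjusted p = 1), and with 1 library left out it ranged from 1.97 to 4.39, the highest being without male library 2.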

How the results depend on the processing

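Under the alternatives run, the counts of genes higher and lower in microglia than in other barcodes stayed within 1.5 times (1917 to 2001 and 3141 to 3427 with 1 library left out), as did the count higher than in each class (551 to 619), apart from 1018 without the Flt1 class. That count of 635 fell furthest with DESeq2, to 435 (431 shared), and was 753 in members under 5000 UMIs. Of 644 alternative values for 43 named genes, 630 kept direction and call, 5 kept direction only and 9 changed sign. Those 9 were Olfml3 without male replicate 1 (-0.23; range with 1 library left out -0.23 to 1.92); Axl without members holding macrophage or T or NK cell transcripts (-0.031) and without male replicate 1 (-0.19; range -0.19 to 0.34); Spp1 with a gate of 2 (0.056), with no excluding genes (0.15), in members under 5000 UMIs (0.058), without female replicate 1 (0.05) and without male replicate 1 (0.15; range -0.45 to 0.15); and Mrc1 without members holding macrophage transcripts (-0.75). Of these Mrc1 alone was called in the full set, and the alternative removes the nuclei that hold it.

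The 37 genes called between the sexes became 20 with DESeq2 (19 shared), 131 with no filter on low counts, 5 without doublet calls, 3 and 8 with gates of 2 and 5, 5 with no excluding genes, 7 without members holding macrophage or T or NK cell transcripts, 5 in members under 5000 UMIs, 9 without the deepest member and 39 to 292 with 1 library left out. The interaction count of 148 became 21 with DESeq2, 0 without doublet calls, 1 and 62 with gates of 2 and 5, 20 with no excluding genes, 29 without members holding macrophage or T or NK cell transcripts, 3 in members under 5000 UMIs, 38 without the deepest member and 50 to 248 with 1 library left out. Some of these alternatives removed nuclei, while others kept the same members or added nuclei, and the cause of the changed counts was not tested. Of the 37 genes, 19 were not tested in members under 5000 UMIs. A library left out leaves 1 in its sex, whose spread is then assumed to be that of the other sex. The sex difference in the share of microglia was -0.227 percentage points without female replicate 2 and -0.0408 without male replicate 2, in a range of -0.227 to 0.382. The settings for members under 5000 UMIs, the deepest member and the Flt1 class were chosen after seeing the data.

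With the replicate number as a block 38 genes were called between the sexes, 29 of them shared with the 37. Deviations of same-numbered libraries correlated at 0.17 over 6799 genes, and the labels do not tie the numbers to a shared batch. The block could not be fitted beside the library block of the interaction test. Member sums of 343769 to 494452 UMIs per library limit what can be seen of genes with few UMIs.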

Other observations

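Skap1, an adaptor known from T cells, was called higher in the gated nuclei, whereas the other genes of the T and NK cell list that were tested, Cd247, Themis and Bcl11b, had 2, 1 and 19 UMIs and did not pass. Of the members, 22 held 2 or more of its UMIs (4 in female library 1, 13 in female library 2, 3 in male library 1 and 2 in male library 2), with a median of 2296 UMIs, and 1 of the 22 was a doublet call. It was higher in microglia than in each of the 5 classes, while Cd3e, Cd3g, Cd2, Prf1 and Nkg7 were at 0 in all members.

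Class II genes lay in few of the 22 nuclei with macrophage transcripts. Cd74, the invariant chain of class II molecules, stood at 1089 CPM (95% interval 729 to 1564) in them, against 104 (89.0 to 121) in the other members; its 29 UMIs lay in 4 nuclei. Their UMIs of the class II genes RT1-Da (9), RT1-Db1 (7) and RT1-Ba (3) lay, for each gene, in 1 nucleus of male library 2. Gpnmb, a glycoprotein of lipid-laden macrophages, stood at 338 CPM (95% interval 155 to 642) in the 22, against 3.02 (0.982 to 7.05) in the others. These values describe nuclei chosen by their transcripts and carry counting error only.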
